A study of Mus musculus with 8 samples.

Results

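The heme breakdown and iron handling genes described here are 10 genes chosen by name: the heme oxygenases Hmox1 and Hmox2, the biliverdin reductases Blvra and Blvrb, the iron exporter ferroportin (Slc40a1), the ferritin subunits Fth1 and Ftl1, the transferrin receptor Tfrc, the divalent metal transporter Slc11a2 and the ferritin cargo receptor Ncoa4. Of the 22180 genes that the arrays measured through a probe set with a single gene symbol, 9 were members. Ftl1 was represented only by probe sets that also list ferritin pseudogenes, and no value is given for it.

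Expression was measured on 8 Affymetrix whole-transcript arrays in cultured mouse melanocytes, the pigment cells of the skin, taken from pups aged 1 to 5 days and grown for 22 days in MGM-2 medium. KO cells carried floxed Atg7 (Atg7 f/f) and Tyr::Cre, a Cre recombinase under the tyrosinase promoter, which acts in pigment cells. WT cells carried the same floxed Atg7 alleles without Cre. UVA-1 light, which has the longest wavelengths of the ultraviolet range, was given at 20 J/cm² to cells of each genotype, others were sham treated, and the RNA was collected after 6 h. All samples carry the label female. The 4 groups, KO UVA, KO sham, WT UVA and WT sham, held 2 arrays each, numbered 1 and 2 and described by the submitters as biological duplicates.

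Heme oxygenase opens the heme ring and releases iron, carbon monoxide and biliverdin. Biliverdin reductase turns biliverdin into bilirubin, and the freed iron is stored in ferritin or leaves the cell through ferroportin. Iron enters through the transferrin receptor and is moved out of endosomes by Slc11a2, and Ncoa4 carries ferritin to the lysosome in a form of autophagy. Hmox1 is a classical UVA-inducible gene of human skin fibroblasts. It is repressed by the heme-sensing factor BACH1 and activated by NRF2, a factor held in check by KEAP1.

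The values below are intensities on a linear scale, quantile normalised by the submitters, and differences are given as log2 differences in intensity between arrays. The targeted gene, Atg7, read 804 and 602 in KO UVA and 831 and 598 in KO sham, against 1004 and 832 in WT UVA and 989 and 859 in WT sham. All KO values lay below all WT values, by a log2 difference of -0.39 that did not pass the test (adjusted p = 0.297 with the replicate number as a block). Whether the probes lie in the deleted part of Atg7 is not given in the sources used here, so this is a weak check of the labels. The summed intensity of the 12 melanocyte markers was 61292 to 91391 in KO UVA, 58495 to 89740 in KO sham, 57266 to 102718 in WT UVA and 60398 to 104298 in WT sham, with the lower value under number 1 in each group. Among them Tyrp1 read 13781 to 17718 over the arrays and Dct 11704 to 18652, whereas Trpm1 read 73 to 77 under number 1, below the median of each array, and 177 to 182 under number 2. Fibroblast markers differed between the arrays: their summed intensity ranged from 21064 to 50512 in KO UVA, 22491 to 53129 in KO sham, 9185 to 50446 in WT UVA and 10278 to 51683 in WT sham, with the higher value under number 1 in each group.

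The limma fits with and without a block differed in what they called. Without a block, 0 of 22180 genes (0%) passed an adjusted p of 0.05 for UVA against sham averaged over genotypes, where 401 had an unadjusted p under 0.05. Likewise 0% passed for KO against WT averaged over treatments, with 517 under that unadjusted p, and 0% for the difference in UVA response between the genotypes, with 294. The spread within a group there held the difference between numbers 1 and 2. A block on the replicate number, and a block on each combination of genotype and number, remove that difference. Such a combination is called a culture below for short. That its UVA and sham arrays came from the same cells is not stated in the labels. With only 2 numbers, each p-value measures the spread between these few arrays.

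UVA-treated cells had more Hmox1, Blvrb and Slc40a1 RNA than sham-treated cells in each of the 4 cultures. On average Slc40a1 was 1.97-fold as high, and Hmox1 and Blvrb were each 1.36-fold as high. These 3 of the 9 measured members passed the test with the culture block, where 53 of 22180 genes (0.239%) passed as higher after UVA. The members were chosen with earlier results of these data known, so their count is not independent evidence. None of the 9 was among the 44 genes (0.198%) that passed as lower. None of the 9 was among the 3 genes (0.0135%) that passed with the replicate block, or passed without a block. Hmox2, Blvra, Fth1, Tfrc, Slc11a2 and Ncoa4 did not pass in any fit.

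Hmox1, the stress-inducible heme oxygenase, read 12063 and 10833 in KO UVA against 8823 and 8495 in KO sham, and 11908 and 8855 in WT UVA against 9142 and 5912 in WT sham. In KO cells both UVA arrays lay above both sham arrays, and the share of all genes with such a separation within 1 genotype was not counted. In WT cells the UVA array of number 2 lay below the sham array of number 1, so the groups overlapped, although each UVA array exceeded the sham array of its own number. The group means were 11448 ± 870 in KO UVA against 8659 ± 232 in KO sham, and 10382 ± 2159 in WT UVA against 7527 ± 2284 in WT sham (SD, n = 2 each). The UVA minus sham log2 difference was 0.45 and 0.35 in the KO cultures and 0.38 and 0.58 in the WT cultures. Averaged over genotypes it was 0.44 (SE 0.04, adjusted p = 0.00649 with the culture block; adjusted p = 0.600 with the replicate block and 1 without a block). It ranked 39th of 22180 genes from the top. The enzyme's constitutive counterpart Hmox2 read 896 and 1048 in KO UVA against 893 and 1187 in KO sham, and 894 and 1051 in WT UVA against 822 and 1111 in WT sham. The Hmox2 groups overlapped throughout, and the averaged log2 difference was -0.03 (SE 0.06, adjusted p = 0.887 with the culture block).

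Blvrb, which reduces biliverdin IX-beta and flavins, had a UVA response of the same size as that of Hmox1. Its intensity was 837 and 736 in KO UVA against 606 and 581 in KO sham, and 775 and 509 in WT UVA against 576 and 351 in WT sham. As for Hmox1, the KO groups separated and the WT groups overlapped through the low values of number 2. How many of all genes separate in this way within a genotype was not counted. The log2 difference was 0.47 and 0.34 in the KO cultures and 0.43 and 0.54 in the WT cultures, and 0.44 on average (SE 0.06, adjusted p = 0.0296 with the culture block; 0.675 with the replicate block and 1 without a block). Blvra, the main reductase of biliverdin IX-alpha, read 255 and 333 in KO UVA against 258 and 319 in KO sham, and 247 and 385 in WT UVA against 268 and 370 in WT sham. Its groups overlapped, and its averaged log2 difference was -0.00 (SE 0.07, adjusted p = 0.994 with the culture block).

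Of the 3 members that passed, only Blvrb had an upstream sequence in the RefSeq promoter table used here, and it is shown for that reason. It was searched for letters found in binding sites of NRF2, BACH1 or AP-1. Bases further upstream were not searched. Of the 10 members, 7 had at least 1 window in that table. The table holds 2 windows for Blvrb, and the one shown lies before the outermost RefSeq start of the gene; the other lies before a start within it. The 250 bases upstream of that outermost start (GRCm38.p6, plus strand, chr7:27447728-27447977, sequence from RefSeq) are given 5′ to 3′, and no base is in capitals because neither motif searched was found.
Blvrb: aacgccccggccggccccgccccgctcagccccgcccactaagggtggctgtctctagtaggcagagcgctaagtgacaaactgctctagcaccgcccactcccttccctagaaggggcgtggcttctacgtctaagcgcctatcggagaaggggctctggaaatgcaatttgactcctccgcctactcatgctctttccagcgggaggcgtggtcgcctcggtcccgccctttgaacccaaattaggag
The letters searched on both strands were TGACNNNGC, the core of the antioxidant response element, and TGANTCA, the AP-1 site, which can overlap on the same bases. The first was in 10.2% and the second in 6.7% of all 32851 upstream windows of 250 bases in the table. Neither was in the window shown or in the other Blvrb window, which says only that these letters are not in these bases. Of the bases shown 62.0% were G or C.

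Slc40a1, which encodes ferroportin, the only known cellular iron exporter of mammals, had the largest UVA difference among the 9 measured members. It read 284 and 326 in KO UVA against 180 and 141 in KO sham, and 263 and 334 in WT UVA against 154 and 138 in WT sham. All 4 UVA arrays lay above all 4 sham arrays, which was so for 272 of 22180 genes (1.23%), and for no other measured member. The group means were 305 ± 29.7 in KO UVA against 160.5 ± 27.6 in KO sham, and 298.5 ± 50.2 in WT UVA against 146 ± 11.3 in WT sham (SD, n = 2 each). The fold was 1.58 and 2.31 in the KO cultures and 1.71 and 2.42 in the WT cultures, so it was higher under number 2 in both genotypes. On average the log2 difference was 0.98 (SE 0.11, adjusted p = 0.0222 with the culture block; 0.234 with the replicate block and 1 without a block), the 4th highest of 22180 genes.

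**Figure D1:**
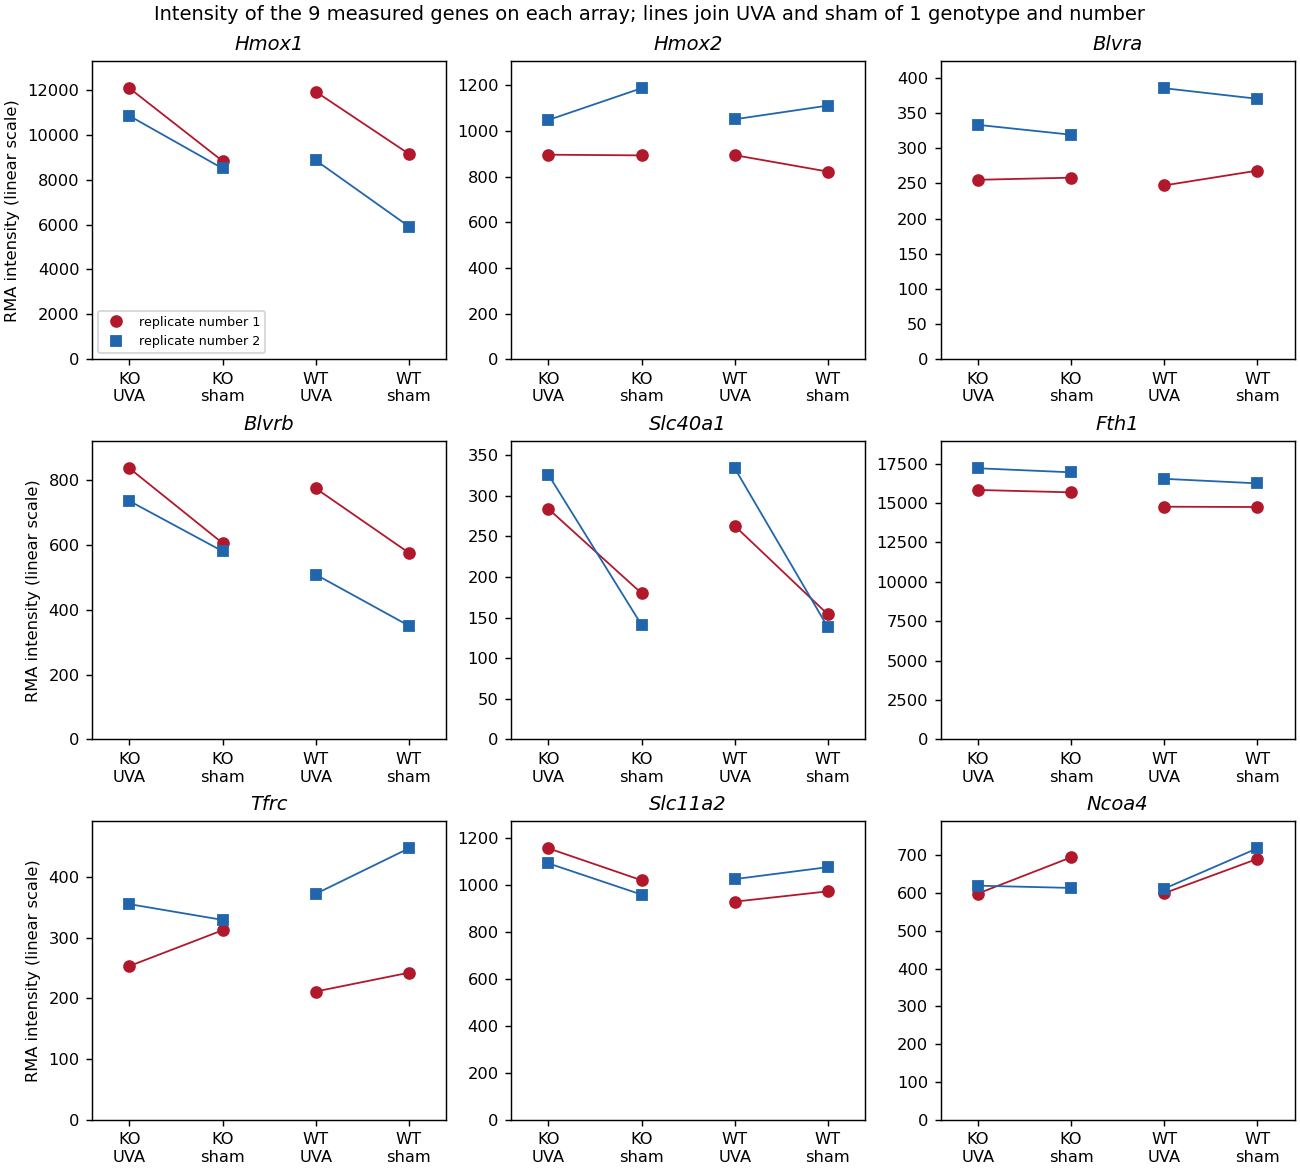
RMA intensity on a linear scale (vertical axis, from 0, with its own range in each panel) of the 9 measured genes on each of the 8 arrays, by group. Red circles are number 1, blue squares are number 2, and lines join the UVA and sham arrays of 1 genotype and number; for Hmox1, Blvrb and Slc40a1 the UVA point lies above its sham point in all 4 cultures, whereas the lines of Fth1 are nearly flat.

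Fth1, the ferritin heavy chain that oxidises and stores iron, read 15829 and 17206 in KO UVA against 15679 and 16949 in KO sham, and 14767 and 16537 in WT UVA against 14748 and 16248 in WT sham. Its UVA minus sham log2 difference was above 0 in all 4 cultures but lay between 0.00 and 0.03, and 0.02 on average (SE 0.02, adjusted p = 0.868 with the culture block). Being higher after UVA in all 4 cultures held for Hmox1, Blvrb, Slc40a1 and Fth1 among the members and for 10.6% of all genes. No member was lower after UVA in all 4 cultures, as 9.08% of all genes were. Fth1 RNA says nothing of ferritin protein, which iron regulatory proteins control at the level of translation.

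Tfrc, the receptor that takes up transferrin-bound iron, read 253 and 355 in KO UVA against 312 and 329 in KO sham, and 211 and 372 in WT UVA against 242 and 447 in WT sham. Tfrc was lower after UVA in both WT cultures and in the KO culture of number 1, and higher in the KO culture of number 2. The averaged log2 difference of -0.16 did not pass (SE 0.08, adjusted p = 0.473 with the culture block). Ncoa4 read 599 and 620 in KO UVA against 695 and 614 in KO sham, and 600 and 612 in WT UVA against 691 and 719 in WT sham. Its UVA values spanned only 599 to 620, and in WT cells both lay below both sham values. The share of all genes with such a separation within a genotype was not counted. The averaged difference was -0.16 (SE 0.06, adjusted p = 0.320 with the culture block), and the KO culture of number 2, at 0.01, was the only one not below 0.

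**Figure D2:**
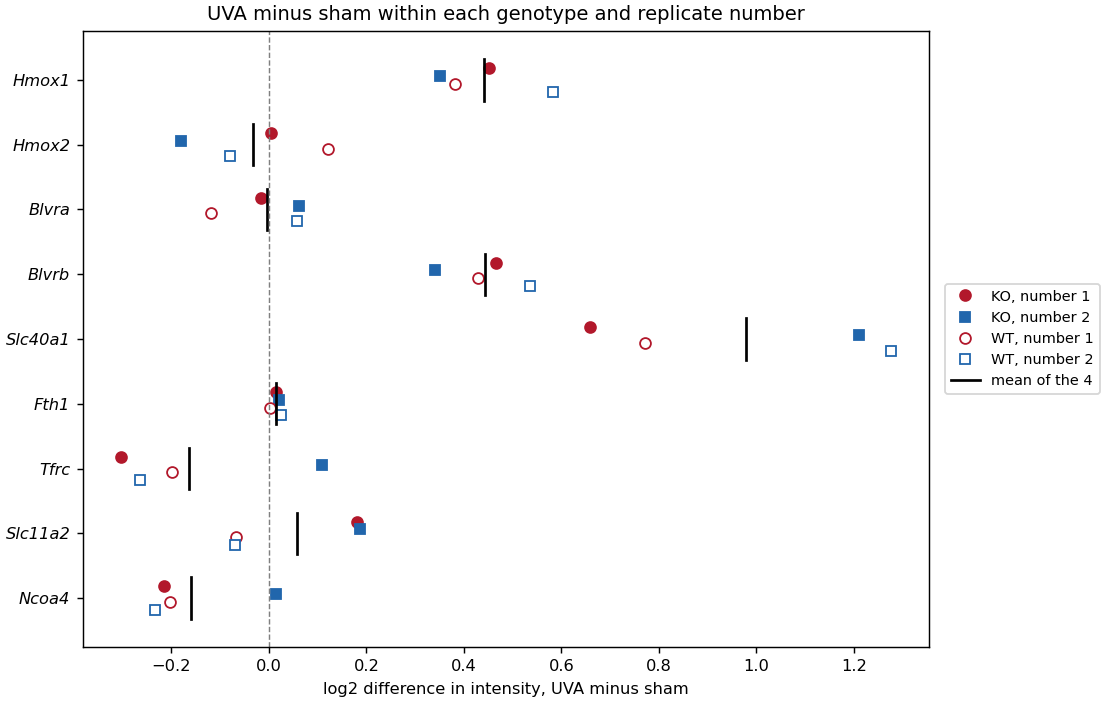
Log2 difference in intensity, UVA minus sham (horizontal axis), of each measured gene in each culture, with KO filled, WT open, number 1 as red circles and number 2 as blue squares; the black bar is the mean of the 4. Slc40a1, at 0.66 to 1.28, stands to the right of Hmox1 (0.35 to 0.58) and Blvrb (0.34 to 0.54), and the other genes lie around 0.

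The UVA response was also taken within each genotype. In KO cells the log2 differences were 0.93 for Slc40a1 (SE 0.16, adjusted p = 0.252), 0.40 for Blvrb (SE 0.08, adjusted p = 0.306) and 0.40 for Hmox1 (SE 0.06, adjusted p = 0.138) with the culture block, and no member was among the 2 genes (0.00902%) that passed. In WT cells they were 1.02 for Slc40a1 (SE 0.16, adjusted p = 0.145), 0.48 for Blvrb (SE 0.08, adjusted p = 0.184) and 0.48 for Hmox1 (SE 0.06, adjusted p = 0.0433), and Hmox1 was among the 12 genes (0.0541%) that passed. Hmox1 in WT cells did not pass without a block or with the replicate block (adjusted p = 1 in both). With the culture block it did not pass with an offset of 32 before log2 (adjusted p = 0.0749), without the variance trend (0.617) or with any 1 array left out (0.669 to 0.978). That Hmox1 passed in WT cells and not in KO cells does not show a difference between them. The test of the difference gave -0.08 for Hmox1 (SE 0.08), -0.08 for Blvrb (SE 0.12) and -0.09 for Slc40a1 (SE 0.23), KO minus WT, each with an adjusted p of 1 with the culture block.

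Slc11a2, which carries ferrous iron out of endosomes, was the 1 member whose cultures moved apart by genotype. It read 1154 and 1090 in KO UVA against 1018 and 957 in KO sham, and 927 and 1023 in WT UVA against 971 and 1074 in WT sham. Both KO cultures were higher after UVA, by 0.18 and 0.19, and both WT cultures lower, by a log2 difference of -0.07 each. Opposite directions of this kind were found for 7.45% of all genes, and the difference of 0.25 (SE 0.10) had an adjusted p of 1 with the culture block. Averaged over genotypes the response of Slc11a2 was 0.06 (SE 0.05, adjusted p = 0.703).

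The calls with the culture block rest on 2 residual degrees of freedom. With that block, leaving out 1 array also takes its partner out of the comparison. Leaving out either of the 2 arrays of a culture therefore gave the same log2 differences. No member passed when any 1 of the 8 arrays was left out (1 residual degree of freedom, adjusted p = 0.526 to 0.694 for the 3 members), and the log2 differences were 0.39 to 0.49 for Hmox1, 0.41 to 0.47 for Blvrb and 0.84 to 1.12 for Slc40a1. Without a block the differences of Hmox1 and Blvrb moved further, and that of Slc40a1 moved less. The averaged difference of Hmox1 was 0.28 without the WT sham array of number 2 and 0.60 without that of number 1, and that of Blvrb was 0.26 and 0.62, while Slc40a1 ranged from 0.89 to 1.07. In WT cells the same arrays moved Hmox1 to 0.17 and 0.80 and Blvrb to 0.12 and 0.84. Without the trend of variance on mean level the adjusted p-values were 0.232 for Hmox1, 0.225 for Blvrb and 0.187 for Slc40a1.

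Macrophages handle much of the body's heme and iron, so markers of these and other cells were set beside the result. Of 15 macrophage markers measured, 0 passed for UVA against sham in any fit, and their median log2 difference was 0.03. Ptprc, a marker of all white blood cells, was dim, at 29 to 34 on every array. The brightest of the list were Cd68 at 339 to 549 and Lyz2 at 259 to 1717. Adgre1, Fcgr1, Itgam, Mrc1, Tyrobp, C1qb, C1qc and Cd163 also read below 110, the lowest array median, on every array. Csf1r and Cd14 lay on both sides of the array medians, and Cx3cr1 and C1qa lay above them. The summed intensity of the macrophage markers was 1990 to 3124 in KO UVA and 1894 to 3447 in KO sham, against 1898 to 2069 in WT UVA and 1799 to 2082 in WT sham, with the bright Lyz2 the main mover. Of the 12 fibroblast markers 0 passed for UVA, with a median of -0.10. In 5 measured erythroid markers the summed intensity was 402 to 431 in KO UVA and 374 to 417 in KO sham, against 415 to 420 in WT UVA and 397 to 423 in WT sham. In cultures of mixed cells, a smaller share of cells of a type and less RNA per cell cannot be told apart.

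KO cells had a Blvrb level 1.28-fold that of WT cells on average, and the other measured members differed by less, but no member passed in any fit. With the replicate block, 7 of 22180 genes (0.0316%) passed for KO against WT averaged over treatments. The log2 difference of Blvrb, KO minus WT, was 0.36 (SE 0.12, adjusted p = 0.529 with the replicate block). Within number 1 it was 0.11 after UVA and 0.07 after sham, and within number 2 it was 0.53 and 0.73. Almost all of the Blvrb difference thus lay in number 2, where the median fibroblast marker was also higher in KO than in WT, by 1.188, against 0.083 in number 1. The median melanocyte marker had a KO minus WT difference of -0.333 in number 2 and 0.010 in number 1. The macrophage marker Lyz2 read 1554 and 1717 in the KO arrays of number 2 against 452 and 557 in the WT arrays. The median macrophage marker differed there by 0.040. The part of the mix of cells in the Blvrb difference was not tested.

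Hmox1 followed the same split, at 0.02 after UVA and -0.05 after sham within number 1 and 0.29 and 0.52 within number 2, and averaged 0.20 (SE 0.09, adjusted p = 0.587 with the replicate block). Fth1 differed little but evenly, by 0.06 to 0.10 in the 4 pairs of KO and WT arrays, with an average of 0.08 (SE 0.03, adjusted p = 0.548). Blvrb and Fth1 were the members higher in KO in all 4 pairs, as 7.65% of all genes were, and no member was lower in all 4 pairs, as 7.78% of genes were. No member had all 4 KO arrays above all 4 WT arrays, as 0.866% of genes did. Slc40a1 had an averaged difference of 0.08 (SE 0.12), Slc11a2 of 0.08 (SE 0.07), Hmox2 of 0.05 (SE 0.07) and Tfrc of 0.03 (SE 0.14). Ncoa4, whose route to the lysosome is a form of autophagy, had -0.05 (SE 0.07), and Blvra had -0.11 (SE 0.08). The adjusted p-values of these 6 genes with the replicate block ranged from 0.715 to 0.965.

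**Figure D3:**
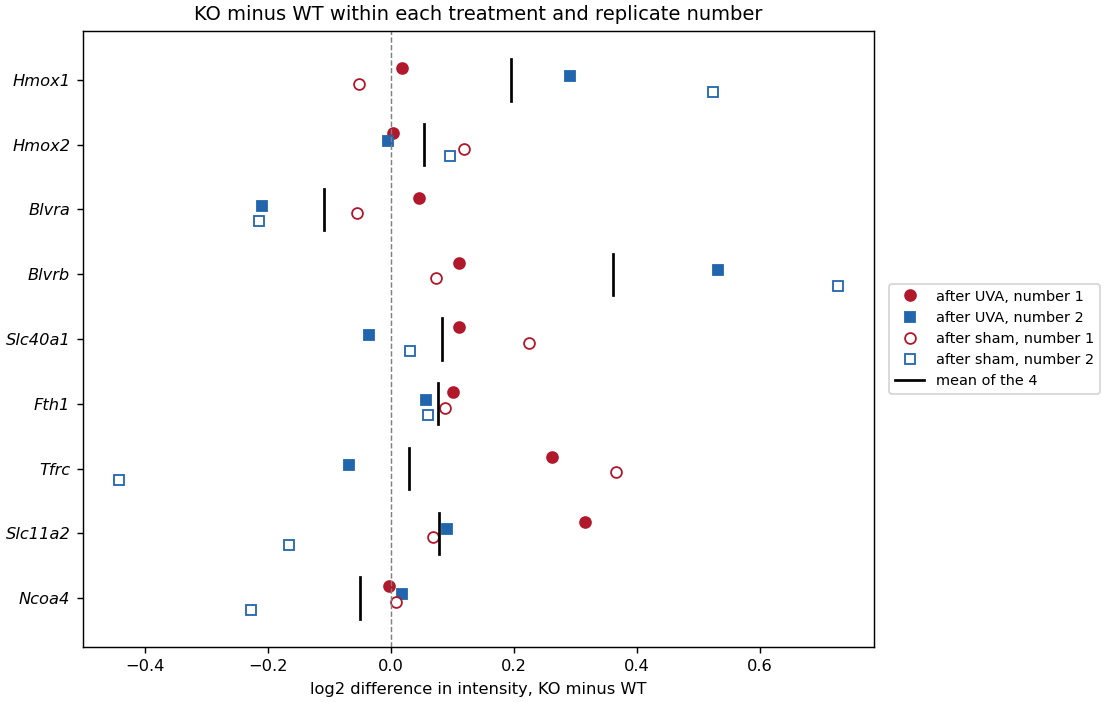
Log2 difference in intensity, KO minus WT (horizontal axis), of each measured gene within each replicate number, after UVA (filled) and after sham (open), with number 1 as red circles, number 2 as blue squares and the mean of the 4 as a black bar. For Hmox1 and Blvrb the number 2 points lie right of the number 1 points, and for Tfrc they lie left of them.

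Several members differed between the replicate numbers, which was not tested here. Averaged over the groups, number 1 minus number 2 was 0.39 for Blvrb and 0.32 for Hmox1, and -0.57 for Tfrc, -0.45 for Blvra and -0.33 for Hmox2. Fth1 (-0.13), Slc11a2 (-0.03), Ncoa4 (0.01) and Slc40a1 (-0.01) differed less. The same difference had a median of 1.66 over the fibroblast markers and -1.12 over the melanocyte markers, and the 5th and 95th percentiles over all genes were -0.64 and 0.69. Whether the members followed the mix of cells was not tested.

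After the mean of each number was subtracted, Blvrb was among the genes whose pattern over the 8 arrays was most like that of Hmox1. Among 2918 genes with an SD of at least 0.2, the highest Pearson correlations with Hmox1 were those of Sh3bp2 (0.968), Blvrb (0.968), Cbr3 (0.965), Gm15127 (0.955) and Cachd1 (0.955). Slc40a1 was 82nd in that order, at 0.80. The genes most like Slc40a1 were Slc7a11 (0.979), Hspa1b (0.975), Tbcel (0.975), Txnrd1 (0.973) and Hspb8 (0.967). Slc7a11 imports cystine, Txnrd1 reduces thioredoxin, and Hspa1b and Hspb8 are heat shock proteins. These arrays share their treatment and genotype, so the correlations describe likeness only.

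Of 7 lists of related genes, one had genes that passed for UVA against sham. In the list of the NRF2 and BACH1 pathway and shared targets, 6 of 13 measured genes passed as higher with the culture block, none as lower, against 0.239% of all genes that passed as higher. All 13 had differences above 0, as did 51.0% of all genes, and their median was 0.23, against 0.00 over all genes. The list was drawn up with results of these arrays known, so its count is not independent evidence of a direction. Slc7a11 read 3070 and 3258 in KO UVA against 1561 and 1087 in KO sham, and 2463 and 2828 in WT UVA against 1160 and 730 in WT sham. Every UVA array of Slc7a11 lay above every sham array, and its log2 difference was 1.40 (SE 0.14, adjusted p = 0.00788). Nqo1, a quinone reductase, rose by 0.62 (SE 0.05, adjusted p = 0.00383), and Gclm and Gclc, the 2 subunits of the first enzyme of glutathione synthesis, rose by 0.55 (SE 0.04, adjusted p = 0.00150) and 0.49 (SE 0.04, adjusted p = 0.00649). Txnrd1 rose by 0.44 (SE 0.05, adjusted p = 0.0222) and Sqstm1, the autophagy receptor p62 that binds KEAP1, by 0.23 (SE 0.03, adjusted p = 0.0233), all with the culture block. Gclm also passed with the replicate block (adjusted p = 0.0338).

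The other 6 lists had 0 genes past the threshold for UVA or KO in any limma fit, with and without a block. Of heme synthesis, 11 of 13 genes were measured, with a median UVA difference of 0.07; the 3 with the largest differences were Clpx (0.15), a mitochondrial unfoldase that acts on the first enzyme of the pathway, Uros (-0.12) and Cpox (0.12). Of heme transport and heme-binding regulators, 17 of 17 were measured with a median of 0.05. Its largest differences were 0.32 for the heme-binding nuclear receptor Nr1d2, 0.28 for Bach1 and 0.26 for the heme exporter Flvcr1, with adjusted p-values of 0.108, 0.0714 and 0.0982 with the culture block.

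Iron uptake, reduction and transfer, with 18 of 19 genes measured, had a median of 0.03 and its largest differences in Cybrd1 (0.22), a ferric reductase, Steap2 (-0.21) and Steap1 (-0.19). Among 14 of 14 genes of iron export and its control the median was 0.01, and Cp, the ferroxidase ceruloplasmin that works with ferroportin, had the largest difference at -0.35 (SE 0.13, adjusted p = 0.314). Bmp2, a ligand of the BMP pathway that controls hepcidin, had 0.13, and Id1, a target gene of that pathway, had -0.11. For 8 of 8 genes of iron storage, its control and ferritin turnover the median was 0.06, with Tax1bp1 at 0.18, Fthl17a at -0.14 and Ireb2, the iron regulatory protein 2, at 0.11. Of iron-sulfur cluster assembly 17 of 22 genes were measured, with a median of -0.02 and no difference beyond that of Lyrm4 (-0.13).

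**Figure D4:**
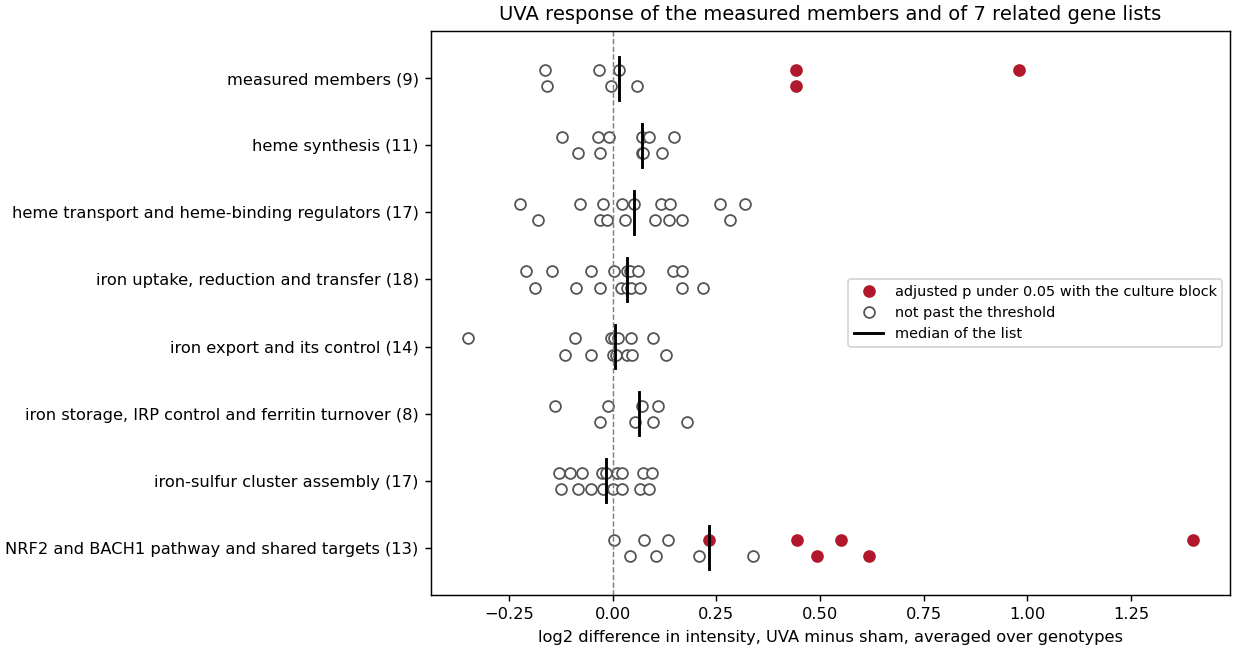
Log2 difference in intensity, UVA minus sham averaged over genotypes (horizontal axis), of the measured members and of each gene in 7 related lists, with the number measured in parentheses. Filled red points passed an adjusted p of 0.05 with the culture block, and the black bar is the median of the list; the filled points are 3 members and 6 genes of the NRF2 and BACH1 list.

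In KO against WT cells, Nqo1 was the only gene of the 7 lists that passed, higher in KO by 1.13 (SE 0.09, adjusted p = 0.0189 with the replicate block). It did not pass without a block. The replicate block counts the UVA and sham arrays of a culture as separate measures of the genotype. If they came from the same cells, its SE and p-value can be too small. The largest differences elsewhere in the lists were Bmp6 (0.61, adjusted p = 0.517), Id1 (0.58, adjusted p = 0.308) and Lrp1 (0.51, adjusted p = 0.563). The median fibroblast marker differed by 0.62 in the same comparison, and its part in these values was not tested.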

How the data were processed

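For each of 41345 probe sets the authors deposited an RMA intensity on every array, computed in Affymetrix Expression Console 1.3.1.187, per the submitters' processing notes. The values are linear, rounded to whole numbers and lie between 7 and 22585, with array medians of 110 to 115. Because the design had assumed a log2 scale, they were converted to log2 before any test. RMA equalises the arrays, so a change common to most transcripts would not be seen. The number of arrays limits the precision.

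Only probe sets that list 1 symbol entered (23521 in the platform annotation, where 1814 others list several symbols and 16010 none), and the one with the highest mean was used for the 1082 genes with several. Of the 22180 genes, 21994 were matched to RefSeq by Entrez identifier.

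Group means over all 8 arrays were fitted with limma 3.58.1 in R 4.3.3, with eBayes with a trend and Benjamini-Hochberg adjustment over all genes in each of 7 comparisons, two-sided, threshold 0.05. The fit without a block had 4 residual degrees of freedom, that with the replicate block 3 and that with the culture block 2. The fit without a block and that with the replicate block were run on simulated data. The fit with the culture block was not. The replicate numbers come from the sample titles. Deviations from group means correlated at 0.80 to 0.92 between same-numbered arrays in every pair of groups, and the first principal component (77.7% of variance) separated the numbers; this pairing is from the data, since the meaning of a number is not stated in the labels.

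The members were given by name, and all are named. From each related list, genes past the threshold and the 3 with the largest absolute difference may be named, and for Hmox1 and Slc40a1 the 5 most like genes. Members and lists were chosen with earlier results of these data known. Markers of keratinocytes, endothelial cells, Schwann cells and mast cells were also listed: 0 passed for UVA or KO in any fit, with median UVA differences of -0.08, -0.01, -0.05 and -0.03. Alternatives were a filter on dim genes, the mean of a gene's probe sets, renewed quantile normalisation, an offset of 32 before log2, eBayes without a trend, averaged cultures and each array left out.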

Additional observations from a re-analysis of the deposited data

Results flagged for a closer look

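The UVA response of Slc11a2 differed in direction between the genotypes. Its log2 difference, UVA minus sham, was 0.18 and 0.19 in the KO cultures and -0.07 and -0.07 in the WT cultures, a difference of 0.25. The limma test of that difference had an adjusted p of 1 without a block, with the replicate block and with the culture block, and 7.45% of all genes showed opposite directions of this kind.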

How the results depend on the processing

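The pairing decides what passes. Genes past the threshold without a block numbered 0 in every comparison. With the replicate block they were 3 for UVA averaged over genotypes, 2 in KO, 1 in WT and 7 for KO against WT averaged over treatments, with 0 members. With the culture block they were 97, 2 and 12 for UVA averaged, in KO and in WT, with 3, 0 and 1 members; the replicate and culture blocks changed no other call. The following alternatives with the culture block were added after the data were seen. For UVA averaged over genotypes, 465 genes passed when the dimmest 25% of genes were left out, 239 after renewed quantile normalisation, 62 with an offset of 32 and 2 without the variance trend, where 0 members passed. In WT, 60 genes and 3 members passed without the dimmest 25%, 23 genes after renewed normalisation, 6 genes and 0 members with the offset, and 0 genes and 0 members without the trend. Leaving out 1 array at a time, counts were 0 genes and 0 members with the culture block (averaged and in WT), 0 to 2 genes with the replicate block for UVA, and 0 for KO against WT; these fits have fewer residual degrees of freedom.

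Small differences changed sign when 1 array was left out without a block. For UVA averaged these ranged from -0.14 to 0.0752 for Hmox2, -0.16 to 0.16 for Blvra (0.0017 after renewed normalisation), -0.0251 to 0.0565 for Fth1 and -0.39 to 0.0575 for Tfrc, and in WT from -0.14 to 0.0042 for Slc11a2. For KO against WT they ranged from -0.0551 to 0.16 for Hmox2, -0.27 to 0.0520 for Blvra, -0.0051 to 0.17 for Slc40a1 and -0.19 to 0.25 for Tfrc. The difference in UVA response ranged from -0.40 to 0.23 for Hmox1, -0.44 to 0.28 for Blvrb and -0.27 to 0.0860 for Slc40a1. The cause was not tested, and none of these had passed. Over all settings, 486 single-gene values counted as unchanged. Part of that count was fixed in advance. Each measured member had 1 probe set with a single symbol, so the mean of its probe sets was the same value. Leaving out a WT array does not alter a log2 difference within KO cells, nor the reverse. Leaving out dim genes alters no log2 difference. The count is therefore not a measure of robustness. For a tested value this meant the same direction and the same side of the threshold. For a value from 1 number alone, without a test, it meant a shift smaller than the spread between replicates, whatever its sign. Of the tested values, 37 lost the threshold, 4 gained it and 36 changed sign. Another 8 without a test moved by more than the spread between replicates.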
